A study of Rattus norvegicus with 8 samples.

Results

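The neurotrophin genes Bdnf and Ntf3 and the receptor genes Ntrk2, Ntrk3 and Ngfr were examined in medial prefrontal cortex of male Sprague-Dawley rats. They were taken by gene symbol, and all 5 were found among the 17168 genes of each deposited table. Rats of high motor impulsivity (HI) made the most premature responses (upper quartile) in the one-choice serial reaction time (1-CSRT) test, where a nose poke must wait for a cue light. Rats of low motor impulsivity (LI) were those of the lower quartile. There were 4 HI and 4 LI libraries, numbered HI1 to HI4 and LI1 to LI4, each made from total RNA of tissue homogenate. No drug, allele or age is given in the labels, and all rats shared strain, sex and tissue. Whether every library comes from its own rat is not spelled out in the labels, so p-values measure the spread between these libraries. In homogenate, fewer cells of a type and less RNA per cell cannot be told apart.

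Neurotrophins are secreted growth factors that are made as precursors and cut to a mature form. Brain-derived neurotrophic factor (BDNF, from Bdnf) acts through the receptor tyrosine kinase TrkB (Ntrk2), and neurotrophin-3 (NT-3, from Ntf3) mainly through TrkC (Ntrk3). The low-affinity receptor p75 (Ngfr) binds the whole family and, together with sortilin, their precursors. In cortex, BDNF comes largely from excitatory neurons, its transcription follows neuronal activity, and TrkB signalling shapes synapses and dendrites. Ntrk2 also gives a truncated receptor without the kinase, which is the main form in astrocytes, and Ntrk3 gives truncated forms as well.

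Bdnf is transcribed from several starts, each joined to the same coding exon, so its mRNA level adds up separately controlled promoters. RefSeq (build GRCr8, matched by symbol) gave 6 start windows of 300 bases for Bdnf and 3 for Ntf3, on the plus and minus strand of their chromosomes. The pair of Bdnf windows that hold a motif searched for are shown, 5′ to 3′, with the motif in capitals. The window on chr3:116637608-116637907 (plus strand) is the promoter that is best known for activity-driven transcription. Its capitals mark TCACGTCA, a variant of the cyclic AMP response element bound by CREB, which begins 38 bases before the start. In the window on chr3:116620585-116620884 (plus strand) the capitals mark CACGTG, an E-box.
Bdnf, CREB-type window: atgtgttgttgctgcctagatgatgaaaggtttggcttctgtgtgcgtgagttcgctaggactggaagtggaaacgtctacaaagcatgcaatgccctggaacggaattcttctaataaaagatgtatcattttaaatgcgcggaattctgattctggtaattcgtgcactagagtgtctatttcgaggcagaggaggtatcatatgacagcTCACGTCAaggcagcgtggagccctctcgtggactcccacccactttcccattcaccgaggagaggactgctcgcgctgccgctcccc
Bdnf, E-box window: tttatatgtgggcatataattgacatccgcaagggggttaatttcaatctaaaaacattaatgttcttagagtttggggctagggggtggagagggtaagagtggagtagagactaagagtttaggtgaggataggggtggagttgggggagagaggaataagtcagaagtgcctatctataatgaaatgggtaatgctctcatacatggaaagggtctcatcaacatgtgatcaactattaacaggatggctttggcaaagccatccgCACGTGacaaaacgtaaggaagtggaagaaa

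Both strands were searched. The Bdnf windows on chr3:116639552-116639851 and chr3:116639608-116639907 overlap, and the Ntf3 windows starting at 160670573 and 160670574 nearly coincide. The totals of 6 and 3 therefore include windows that share most of their bases. TCACGTCA was in 1 of the 6 Bdnf windows and in 0 of the 3 Ntf3 windows, against 0.4% of the 33465 windows of this length. The full palindrome TGACGTCA was in 0 of the 6 and 0 of the 3, against 1.83% of all windows. The shorter core CGTCA, which lies within both of those longer motifs, was in 1 of 6 and 0 of 3, against 21.2% of all windows. CACGTG was in 1 of 6 and 0 of 3, against 6.42%. These matches describe letters in these windows and do not show binding.

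The rounded expected counts summed to between 7354416 and 9476656 per library. Ribosomal RNA took between 0.406% of the counts, in HI4, and 25.5%, in HI2. On the first principal component, which held 51.7% of the variance of log2 CPM, HI4 (51) and LI3 (34.6) stood apart from the other 6 libraries (-25.9 to 2.05). Each member's difference is therefore given with and without them. Counts of every within-group pair of libraries differed by more than sampling noise. The deviation of log2 CPM from a gene's mean over all libraries also varied with transcript length. Its slope per doubling of length was -0.01, 0.01, -0.00 and 0.13 in HI1 to HI4. In LI1 to LI4 the slope was -0.08, -0.03, 0.01 and -0.02. The part of transcript length in the values below was not tested.

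The receptor genes spanned the whole range of the set, with Ntrk2 far above every other member. On the TPM scale, which divides by transcript length and so allows genes to be compared, Ntrk2 averaged 346 ± 58.7 TPM in HI and 302 ± 23.7 TPM in LI (SD, n = 4 each). Ntrk3 averaged 44 ± 6.85 TPM in HI and 33.7 ± 4.68 TPM in LI. Bdnf averaged 19.6 ± 3.81 TPM in HI and 16.9 ± 2.37 TPM in LI. These values place TrkB mRNA 8.35 times above TrkC mRNA over all 8 libraries, with Ntrk2 making up 82.8% of the summed mean TPM of the set. Ntf3 averaged 8.22 ± 3.36 TPM in HI and 9.1 ± 2.4 TPM in LI. Ngfr averaged 1.69 ± 0.782 TPM in HI and 1.46 ± 0.488 TPM in LI. The order Ntrk2, Ntrk3, Bdnf, Ntf3, Ngfr held in 8 of 8 libraries, and no pair of neighbours in it overlapped over the libraries: the lowest Ntrk3 value was 29.6 TPM against a highest Bdnf value of 22.9, the lowest Bdnf value 13.5 against a highest Ntf3 value of 12.2, and the lowest Ntf3 value 3.75 against a highest Ngfr value of 2.81.

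Ntf4, neurotrophin-4, the other TrkB ligand, had between 0 and 4 counts in HI libraries and between 0 and 2 in LI libraries, and did not pass the low-count filter.

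Of the 5 members, 4 had higher and 1 had lower estimates in HI, where 48.5% of all 11631 genes tested had higher estimates. By edgeR's quasi-likelihood test with Benjamini-Hochberg adjustment, 0 of the 5 members and 0 of all genes tested (0%) passed the threshold of 0.1. DESeq2 called 38 genes and Fisher's exact test on summed counts 6596. An unadjusted p under 0.05 was found for 1 of the 5 members, Ntrk3, and for 484 of all genes (4.16%), of which 357 were higher in HI (3.07% of genes tested) and 127 lower. The median log2 fold change of the 5 was 0.23, beside -0.01 over all genes tested. Fold changes below are log2, HI minus LI, with SE, and levels are CPM, the reads of a gene as a share of the library's reads after TMM scaling.

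**Figure D1:**
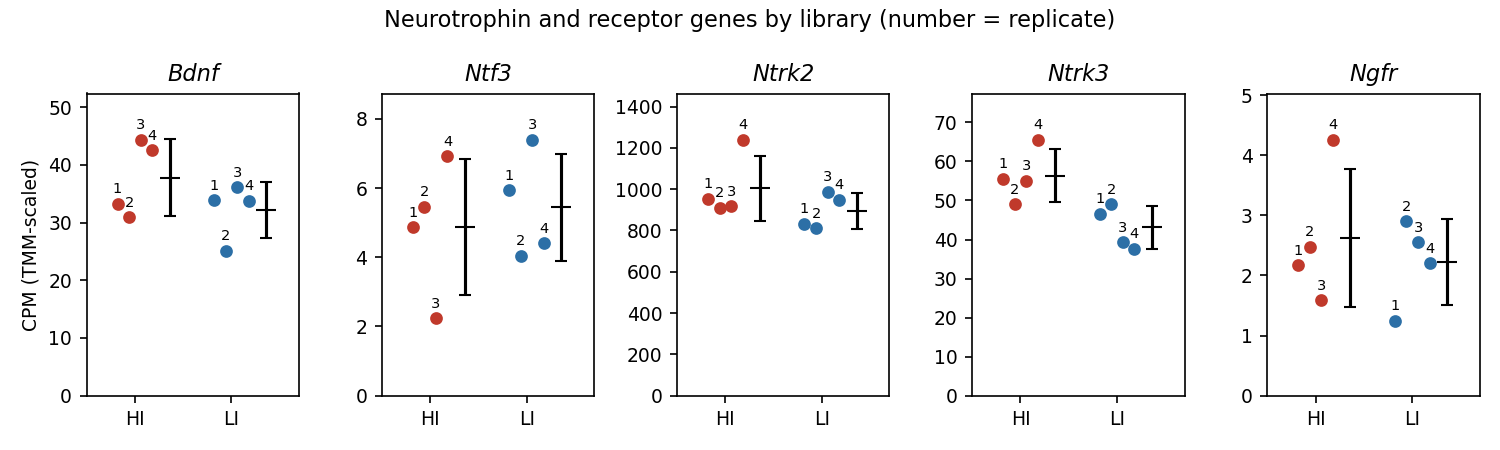
CPM of each member in each library (points, numbered by replicate; red HI, blue LI), with the group mean and SD beside them (n = 4 each); each panel has its own axis, starting at 0. The 4 HI libraries lie above the 4 LI libraries for Ntrk3, by 49.1 CPM in HI2 against 49 CPM in LI2, while the groups overlap for the other members.

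Among the ligands, Bdnf had 33.3, 30.9, 44.4 and 42.6 CPM in HI1 to HI4, against 33.9, 25.1, 36.1 and 33.8 CPM in LI1 to LI4. HI3 and HI4 were the highest of the 8 and LI2 the lowest, while HI1 and HI2 lay within the LI range. The log2 fold change was 0.23 ± 0.17 (adjusted p = 1.00 in edgeR's quasi-likelihood test, exact permutation p = 0.286, two-sided, 70 assignments), with an interval of 2 SE either side from -0.10 to 0.56. HI lay above the LI mean in 3 of 4 libraries. The value was 0.14 without HI3, 0.13 without LI2 and 0.23 without HI4 and LI3. In the edgeR quasi-likelihood model that also held each library's ribosomal RNA share it was 0.34 ± 0.15 (unadjusted p = 0.0482, adjusted p = 0.7). Bdnf rested on 187 to 418 reads in HI libraries and 199 to 326 in LI libraries, for which counting alone gives a coefficient of variation of 5.8%; the observed one was 17.7% in HI and 15.1% in LI.

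Ntf3 had 4.86, 5.46, 2.23 and 6.92 CPM in HI1 to HI4, against 5.93, 4.04, 7.4 and 4.4 CPM in LI1 to LI4. HI3, the library with the most Bdnf, had the least Ntf3, and the groups overlapped over most of their range. The log2 fold change was -0.17 ± 0.34 (adjusted p = 1.00 in edgeR's quasi-likelihood test, exact permutation p = 0.686), with a 2 SE interval from -0.86 to 0.51. HI lay below the LI mean in 2 of 4 libraries. The sign turned without HI3 (0.08) and without LI3 (0.01), and the value was -0.40 without HI4 and -0.22 without HI4 and LI3. At 21 to 52 reads in HI libraries and 32 to 58 in LI libraries, counting alone gives a coefficient of variation of 15.3%, against an observed 40.3% in HI and 28.3% in LI.

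Among the receptors, Ntrk3 showed the clearest difference of the set. It had 55.6, 49.1, 55.1 and 65.6 CPM in HI1 to HI4, against 46.6, 49, 39.3 and 37.6 CPM in LI1 to LI4. The groups did not overlap, which made Ntrk3 1 of 269 genes with all HI above all LI (2.31% of the 11631 tested; 3.46% in either direction), but the gap between HI2 and LI2 was 0.1 CPM. The log2 fold change was 0.39 ± 0.13, or 1.31-fold, with a 2 SE interval from 0.12 to 0.66. Its unadjusted p was 0.0169 and its adjusted p = 1.00 in edgeR's quasi-likelihood test (exact permutation p = 0.0286, the lowest value possible with 4 libraries a group). By size, the estimate lay above that of 94.4% of genes tested, and by p it ranked 163.

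The separation of the groups depended on the scaling; the scalings compared here were chosen after the values were seen. It held for RLE-scaled counts (lowest HI 48.81, highest LI 48.49 CPM) and with ribosomal RNA left out before TMM (52.25 and 52). On the deposited TPM scale HI2 (35.96 TPM) lay below LI2 (39.53 TPM), and with TPM rescaled without ribosomal RNA HI2 was at 39.92 and LI2 at 40.15. HI2 also lay below LI2 on the deposited FPKM scale (15.01 and 18.97) and as CPM of the plain library total (40.38 and 50.8). With 1 library left out the estimate ran from 0.31 without HI4 to 0.45 without HI2 or LI2, and its unadjusted p was above 0.05 in 1 of these 8 fits, without LI4 (0.0565). It was 0.27 ± 0.13 without both HI4 and LI3, with an unadjusted p of 0.0727. It was 0.13 ± 0.12 within replicate numbers 1 and 2 and 0.67 ± 0.21 within numbers 3 and 4, a division by title number that the labels do not call a batch. LI3 and LI4 were the lowest libraries and HI4 the highest. Ribosomal RNA took 6.12% and 25.5% in HI1 and HI2, with 5.44% and 6.42% in LI1 and LI2, and 3.96% and 0.406% in HI3 and HI4, with 0.418% and 1.37% in LI3 and LI4; its part in this was not tested beyond the covariate model, where Ntrk3 stood at 0.43 ± 0.14.

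Ntrk2 had 953, 911, 918 and 1240 CPM in HI1 to HI4, against 833, 811, 988 and 949 CPM in LI1 to LI4. HI4 stood far above the rest, and HI1, HI2 and HI3 lay inside the LI range. The log2 fold change was 0.17 ± 0.13 (adjusted p = 1.00 in edgeR's quasi-likelihood test, exact permutation p = 0.257), with a 2 SE interval from -0.10 to 0.43. HI lay above the LI mean in 4 of 4 libraries. The value was 0.05 without HI4 and 0.10 without HI4 and LI3. With 5508 to 9329 reads in HI libraries and 6429 to 9065 in LI libraries, counting error was 1.12% and did not limit the comparison. The 8 astrocyte markers, of which 3 were higher and 5 lower in HI, summed to 3730 to 4850 CPM in HI and 3850 to 4850 CPM in LI. HI4 and LI3 had the highest Ntrk2 of their group, and the markers ran opposite ways in them. Aqp4, Gja1 and S100b were highest of their group in both of these libraries, while Gfap, Aldoc and Aldh1l1 were lowest of their group in both. Slc1a3 and Slc1a2 were highest of the HI group in HI4 (873 and 398 CPM). In LI3 they stood at 788 and 215 CPM, below LI4 (834 and 292 CPM). The part of astrocyte content in the Ntrk2 level was not tested.

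Ngfr had 2.17, 2.48, 1.59 and 4.26 CPM in HI1 to HI4, against 1.25, 2.9, 2.55 and 2.2 CPM in LI1 to LI4. The highest and the second lowest library were both HI, and the groups overlapped, though HI4 lay above every LI library and LI1 below every HI library. The log2 fold change was 0.23 ± 0.37 (adjusted p = 1.00 in edgeR's quasi-likelihood test, exact permutation p = 0.657), with a 2 SE interval from -0.52 to 0.98. HI lay above the LI mean in 2 of 4 libraries. The sign turned without HI4 (-0.10) and without HI4 and LI3 (-0.03), and the value was 0.03 without LI1 and 0.42 without HI3. Ngfr rested on 14.6 to 31.96 estimated reads in HI and 12.11 to 23.05 in LI, and in 8 of 8 libraries this number was not whole, so some of its reads were shared with other genes. In the brain p75 is best known from cholinergic neurons of the basal forebrain. The 3 cholinergic markers (1 higher, 2 lower in HI, none at 0) summed to 11.4, 9.59, 10.1 and 20.6 CPM in HI1 to HI4, against 10.2, 17.3, 19.4 and 13.1 CPM in LI1 to LI4. HI4 had the highest Ngfr and, by Chat (14.2 CPM), the highest sum, while the other markers differed from each other. Slc18a3 was at its lowest of the 8 libraries in HI4 (0.532 CPM). Slc5a7 was highest of the HI group in HI4, at 5.86 CPM, with 5.87 CPM in LI3 and its highest value, 8.71 CPM, in LI2. The part of such cells in the Ngfr level was not tested.

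**Figure D2:**
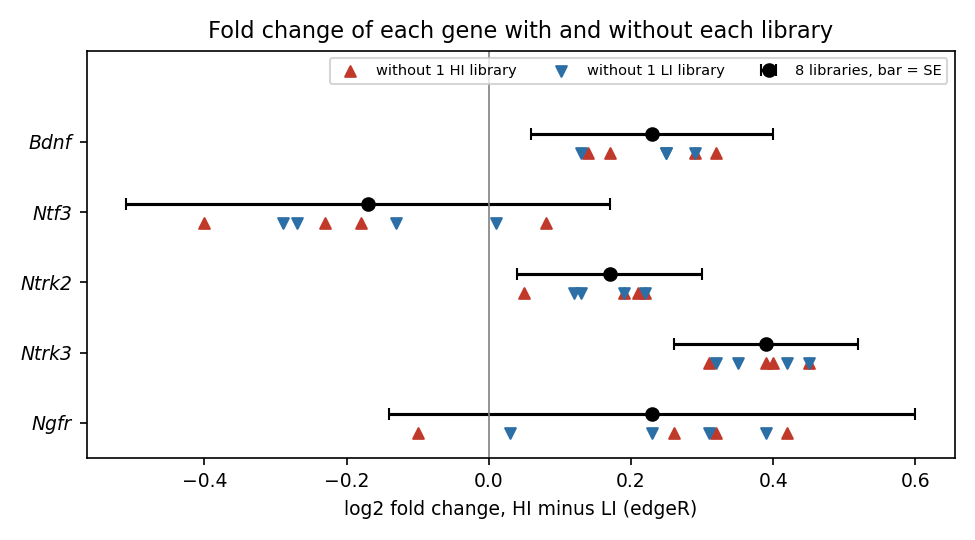
Log2 fold change (HI minus LI, edgeR) of each member from 8 libraries (black, bar = SE) and from 7 libraries (triangles, red without an HI library, blue without an LI library). Ntrk3 stays between 0.31 and 0.45 and Bdnf between 0.13 and 0.32, while Ntf3 and Ngfr cross 0.

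Markers of other cells varied alongside these values, and among the sums below only those of microglia did not overlap between the groups. The 6 microglia markers were all lower in HI, 2 of them without overlap (all HI below all LI in 1.14% of genes tested), and summed to 199 to 234 CPM in HI and 248 to 262 CPM in LI. The 6 meningeal and fibroblast markers were higher in HI in all 5 tested and summed to 933, 232, 173 and 80.4 CPM in HI1 to HI4, against 34.4, 164, 44.4 and 216 CPM in LI1 to LI4. HI1 stood far above all others, and HI3 and HI4 lay within the LI range. The 6 oligodendrocyte markers were all lower in HI, at 1990, 1940, 2040 and 2120 CPM in HI1 to HI4, against 1670, 6350, 3390 and 2540 CPM in LI1 to LI4. LI2 was far the highest, and LI1 lay below every HI library. Excitatory neuron markers, which define the tissue's main neurons, were present in every library, at 2940 to 3610 CPM in HI and 2770 to 3240 CPM in LI, with 4 of 6 higher in HI. Inhibitory neuron markers stood at 594 to 686 CPM in HI and 673 to 885 CPM in LI, with 1 of 6 higher. The 5 striatal markers were all lower in HI, at 121, 157, 163 and 129 CPM in HI1 to HI4, against 139, 502, 153 and 147 CPM in LI1 to LI4. LI2 alone stood above the HI range, and the other LI libraries lay within it. The 5 precursor markers of oligodendrocytes (2 higher) stood at 242 to 323 CPM in HI and 250 to 347 CPM in LI, and the 6 endothelial and pericyte markers (5 higher) at 110 to 218 CPM in HI and 101 to 158 CPM in LI. The 5 choroid plexus markers, 2 of them tested and both higher, stood at 1.46 to 23.9 CPM in HI and 1.66 to 5.17 CPM in LI. The part of these cell contents in the values of the members was not tested.

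The deposited length of a gene is the mean of its transcripts weighted by their estimated abundance. A change in the mix of transcripts could therefore be seen, apart from the level, only where it moved this mean. Different mixes of more than 2 transcripts can give the same length. The tables list 10 transcripts for Bdnf, 4 for Ntf3, 3 for Ntrk3 and 2 for Ntrk2, and 1 for Ngfr, whose length is therefore fixed at 3258 bases. The weighted length of Ntrk2 was 6013, 6017, 5860 and 6095 bases in HI1 to HI4, against 6049, 6066, 6154 and 6210 bases in LI1 to LI4. LI3 and LI4 exceeded every HI library, and HI4 lay between LI2 and LI3. The HI mean was shorter by 123 bases, from 5996.4 ± 98.6 bases in HI and 6119.8 ± 76 bases in LI (SD, n = 4 each), with an exact permutation p of 0.0857. Without HI3 the difference was -77.9 bases. Which of its listed transcripts is the longer is not given in the tables, so this value does not say which receptor form it follows.

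For Bdnf the weighted length went the other way. It was 3988, 4060, 4025 and 4010 bases in HI1 to HI4, against 3982, 4024, 3973 and 3899 bases in LI1 to LI4. The HI mean exceeded the LI mean by 51.3 bases (4020.8 ± 30.2 bases in HI and 3969.5 ± 51.9 bases in LI, exact permutation p = 0.114), with LI2 above HI1 and HI4. Without LI4 the difference was 27.8 bases. Ntf3 stood at 1304 to 1327 bases in HI, against 1314 bases in LI1 and 1332 in LI2, LI3 and LI4. Its difference of -8.89 bases (exact permutation p = 0.2) was -4.04 without HI2 and -13.5 without LI1. Ntrk3 stood at 2705 to 2740 bases in HI and 2712 to 2728 bases in LI (exact permutation p = 0.857). None of these 4 tests reached an unadjusted p of 0.05, and the groups overlapped in each of the 4 genes. Over the 426 tested genes whose length varies, 11 (2.58%) had groups that did not overlap.

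**Figure D3:**
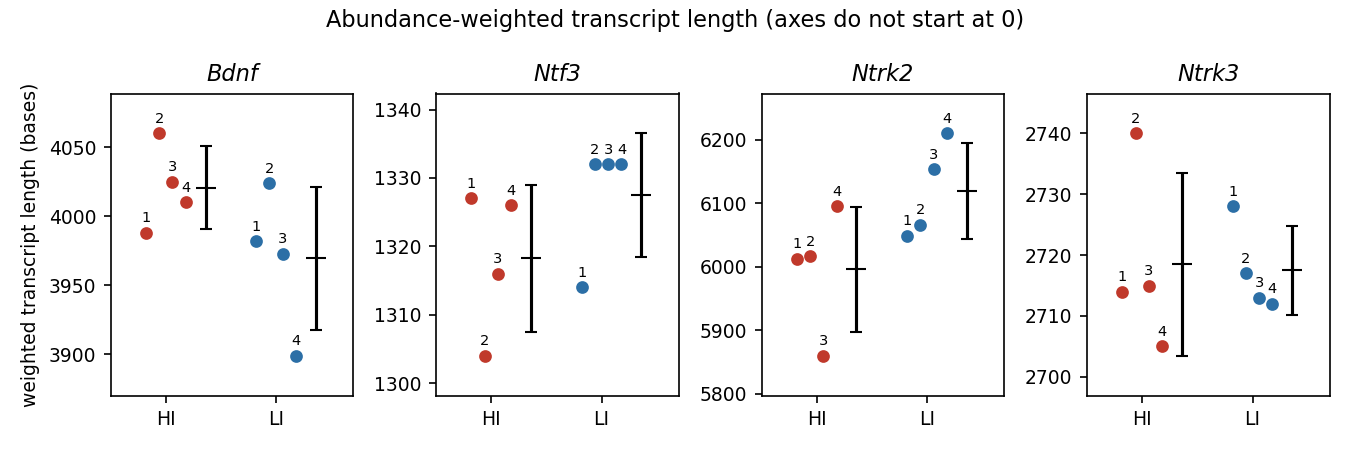
Abundance-weighted transcript length in bases of the members with several transcripts, by library (points numbered by replicate; red HI, blue LI), with group mean and SD (n = 4 each); the axes do not start at 0. Ntrk2 was shorter on average in HI, at 5996.4 bases against 6119.8 in LI, and the groups overlap in each panel.

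Ratios within a library do not depend on library scaling, and were chosen after the values were seen. Ntrk3 stood at 13.3%, 12.1%, 13.3% and 12.2% of Ntrk2 on the TPM scale in HI1 to HI4, against 12.7%, 13.8%, 9.26% and 9.31% in LI1 to LI4. HI libraries were closely alike, while LI1 and LI2 lay near them and LI3 and LI4 below them. The log2 ratio differed by 0.20 (exact permutation p = 0.343), with an SD of 0.07 in HI and 0.30 in LI. Bdnf stood at 5.33%, 5.08%, 7.11% and 5.27% of Ntrk2 in HI1 to HI4, against 6.26%, 4.71%, 5.73% and 5.74% in LI1 to LI4, a log2 difference of 0.02 (exact permutation p = 0.886). The ligand to receptor ratio Ntf3 over Ntrk3 was 18.8%, 24.6%, 8.78% and 22.6% in HI1 to HI4, against 27.8%, 17.7%, 40.3% and 25% in LI1 to LI4. LI3 was highest and HI3 lowest, and the log2 difference was -0.61 (exact permutation p = 0.2). Bdnf over Ntf3 differed by 0.43 (exact permutation p = 0.514).

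The genes whose log2 CPM was most like each member were taken as the 3 with the highest Pearson r over the 8 libraries, as a description with no p. Nearest to Ntrk3 were Kcna2, a voltage-gated potassium channel (r = 0.969, Spearman rho = 0.976), Grin2a, an NMDA receptor subunit (r = 0.957, rho = 1.000), and Rnf4, a ubiquitin ligase (r = 0.946, rho = 1.000). Over the 6 libraries without HI4 and LI3, r was 0.963, 0.961 and 0.910 for these genes. Kcna2 averaged 56.7 ± 9.97 CPM in HI and 38.1 ± 7.47 CPM in LI. Grin2a averaged 117 ± 14.3 CPM in HI and 71.8 ± 10.7 CPM in LI, and Rnf4 35.5 ± 1.7 CPM in HI and 32.4 ± 0.487 CPM in LI, each ± SD over 4 libraries. The points share their libraries and scaling, and these genes are the highest of 11631 values of r for each member. Their group means therefore follow those of the member by choice and are no separate result.

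Nearest to Bdnf was Trhde, an enzyme that degrades thyrotropin-releasing hormone, at r = 0.985 over 8 and 0.985 over 6 libraries, followed by the kinase gene Mink1 (0.972) and the transcription factor gene Tshz3 (0.966). Trhde averaged 38.9 ± 6.78 CPM in HI and 33.2 ± 5.7 CPM in LI. Nearest to Ntrk2 were Ptbp3, an RNA-binding protein (0.982), Txlng (0.977) and Ralgps2 (0.977). Without HI4 and LI3 their r to Ntrk2 was lower, at 0.930, 0.886 and 0.883. Nearest to Ngfr were Slc10a7 (0.986), the transcription factor gene Foxo1 (0.977) and Rnf219 (0.970), and nearest to Ntf3 were Cep112 (0.946), Hmox2-ps1 (0.927) and Pcdhga11 (0.926), at the low counts given above for Ngfr and Ntf3.

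**Figure D4:**
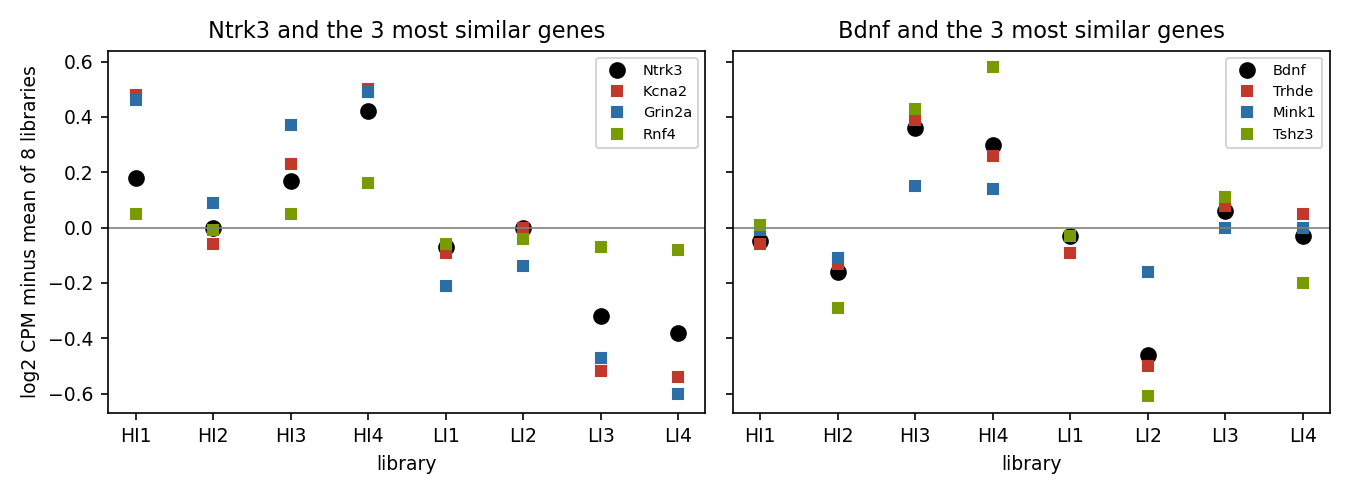
Log2 CPM minus the mean of the 8 libraries for Ntrk3 and Bdnf (black circles) and the 3 genes with the highest Pearson r to each (coloured squares), by library. Ntrk3 and Kcna2 are highest in HI4 (0.42 and 0.50) and lowest in LI4 (-0.38 and -0.54), and Bdnf and Trhde are lowest in LI2 (-0.46 and -0.50).

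Around the receptors, the sortilin family and partner genes had small positive estimates. All 12 tested genes of this list were higher in HI, at a median of 0.14 (log2), beside 48.5% and -0.01 over all genes, and 0 passed the adjusted threshold. That background covers genes of all transcript lengths, and the part of length in these estimates was not tested. Sorcs3, a sortilin relative of neurons, had 57.1, 63.8, 62.3 and 67.9 CPM in HI1 to HI4, against 47.1, 47.2, 47.6 and 53.7 CPM in LI1 to LI4. No LI library reached the lowest HI library, and the log2 fold change was 0.36 ± 0.11 (adjusted p = 1.00 in edgeR's quasi-likelihood test, unadjusted p = 0.00674). Sorcs1, its close relative, differed by 0.25 ± 0.13 with overlapping groups. The list median was 0.06 within replicate numbers 1 and 2 and 0.24 within numbers 3 and 4.

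Downstream of the Trk receptors, 22 of 37 adaptor and kinase genes had higher and 15 lower estimates, with a median of 0.05 and 0 past the adjusted threshold. Shc3, a neuronal adaptor that docks on Trk receptors, had 67.5, 82, 75.9 and 74.8 CPM in HI1 to HI4, against 59.1, 58, 41.6 and 57.1 CPM in LI1 to LI4. The groups did not overlap, and the log2 fold change was 0.47 ± 0.13 (adjusted p = 1.00 in edgeR's quasi-likelihood test, unadjusted p = 0.00556). Pik3cb, a catalytic subunit of phosphoinositide 3-kinase, differed by 0.38 ± 0.13, also without overlap. In all, 3 of the 37 had all HI above all LI, beside the 2.31% of all genes. The list median was 0.03 without HI1 and 0.09 without HI2.

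The p75 adaptor and secretase list was balanced, with 9 of 18 higher, 9 lower, a median of 0.01 and 0 past the adjusted threshold. Traf6, a ubiquitin ligase recruited to p75, differed by 0.35 ± 0.18, with all HI libraries (6.58 to 8.1 CPM) above all LI libraries (4.58 to 6.38 CPM). Among genes that cut or clear the precursors, 8 of 13 tested were higher and 5 lower, with a median of 0.11 and 0 past the threshold. Pcsk5 differed by 0.35 ± 0.17 and Pcsk1, a convertase of the regulated secretory pathway, by 0.34 ± 0.19, both with overlapping groups. That median was 0.05 without LI2.

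Regulators of Bdnf transcription and genes induced by activity or BDNF had positive medians and a wide spread. Of 15 regulators 12 were higher and 3 lower, with a median of 0.21, which was 0.11 without HI4, and 0 past the adjusted threshold. Creb1, whose protein CREB binds elements of the kind marked in the Bdnf window, had 8.38, 9.26, 9.35 and 11.2 CPM in HI1 to HI4, against 5.31, 7.07, 7.53 and 9.43 CPM in LI1 to LI4. LI4 lay inside the HI range and the other LI libraries below it, with a log2 fold change of 0.38 ± 0.21.

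Of 17 induced genes 13 were higher and 4 lower, with a median of 0.34 and 0 past the adjusted threshold. Egr2, a zinc-finger transcription factor, had 35.9, 25, 44.2 and 47.5 CPM in HI1 to HI4, against 11.5, 8.2, 17 and 35 CPM in LI1 to LI4. LI4 lay inside the HI range while LI1, LI2 and LI3 lay below it, and the log2 fold change was 1.09 ± 0.40. Nr4a1, a nuclear receptor of the same class of early genes, differed by 0.66 ± 0.28. Nr4a1 in LI4, at 168 CPM, also lay within the HI range of 121 to 212 CPM.

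**Figure D5:**
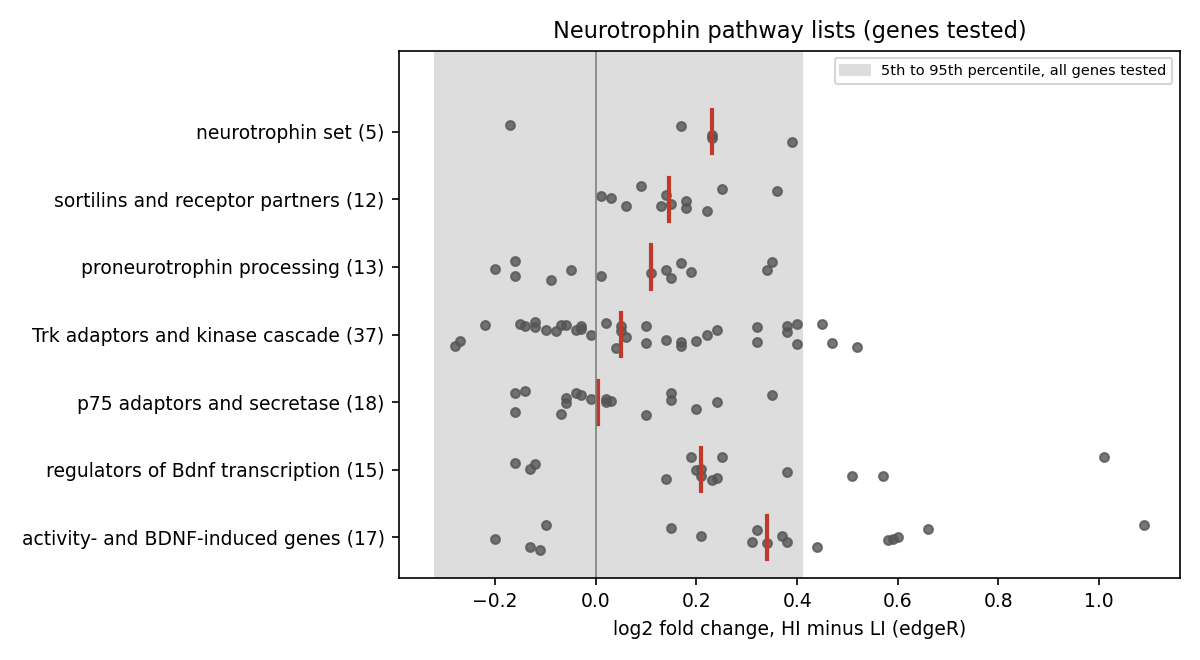
Log2 fold change (HI minus LI, edgeR) of every tested gene in the members' set and 6 pathway lists (points; number tested in brackets), with list medians in red and the 5th to 95th percentile of all 11631 genes tested, -0.32 to 0.41, in grey. Medians of the pathway lists run from 0.01, for the p75 adaptors and secretase, to 0.34 for the activity- and BDNF-induced genes.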

How the data were processed

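The authors deposited, per the file headers, expected counts, TPM, FPKM and transcript length per gene; FPKM entered only alternatives. The submitters' processing notes name Bowtie2 2.1.0. Quantifier, build, annotation and strand: not given in the sources used here. Expected counts (between 10.8% and 11.4% not whole) were rounded. In edgeR 4.0.16 (R 4.3.3), filterByExpr (minimum count 10, total 15) kept 11631 genes, scaled by TMM, and the quasi-likelihood test compared HI with LI, p being adjusted over all genes with a threshold of 0.1. That is the alpha of the series' design text, which names Fisher's exact test. Fisher's test ignores the spread between libraries and was an alternative. SE is the absolute log2 fold change over the square root of F. Log2 CPM used a prior count of 2. Exact permutation tests of log2 CPM, length or log2 TPM ratio were two-sided. DESeq2 1.42.0 and limma 3.58.1, other filters, scalings and pseudocounts of 0.1 and 1 TPM were alternatives. The code was tested on simulated data. Genes named outside the set are the 2 of smallest p per pathway list and the 3 most similar to each member. Some genes that this rule takes are not reported here. Members and lists were chosen with earlier results of these data known. All 20 RefSeq transcripts listed for the 5 members matched their symbol; promoter windows came from RefSeq (GRCr8).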

Additional observations from a re-analysis of the deposited data

Results flagged for a closer look

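A library was marked where its gap to the nearest of its group exceeded Dixon's 95% limit for a group of 4. Chance marks about 1 in 20 groups, and 5 were marked among 48 looked at. Ntrk2 in HI4, at 1240 CPM, stood above the other HI libraries (911 to 953). The log2 ratio of Bdnf to Ntrk2 in HI3, -3.81, stood above the other HI libraries (-4.30 to -4.23). The weighted Ntf3 transcript length in LI1, 1314 bases, stood below the other LI libraries, which were all at 1332. With those tied, a departure of any size would have been marked, and Ntf3 had only 32 to 58 reads in LI libraries. The summed striatal markers in LI2, at 502 CPM, stood above 139 to 153 in the other LI libraries. The summed cholinergic markers in HI4, at 20.6 CPM, stood above 9.59 to 11.4 in the other HI libraries.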

How the results depend on the processing

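Without any single library 0 genes passed, and the log2 fold change ranged from 0.13 to 0.32 for Bdnf, -0.40 to 0.08 for Ntf3, 0.05 to 0.22 for Ntrk2, 0.31 to 0.45 for Ntrk3 and -0.10 to 0.42 for Ngfr; list medians from 0.10 to 0.18 (sortilins), 0.05 to 0.12 (processing), 0.03 to 0.09 (Trk adaptors), -0.02 to 0.02 (p75 adaptors), 0.11 to 0.30 (Bdnf regulators) and 0.23 to 0.45 (induced genes). Length differences ranged from 27.8 to 69.4 bases for Bdnf, -13.5 to -4.04 for Ntf3, -156 to -77.9 for Ntrk2 and -6.38 to 5.38 for Ntrk3, against 0.873 with all libraries. DESeq2 called 38 of 7794 genes (0.488%), none of them a member (Ntrk3 adjusted p = 0.517). It gave no adjusted p for Ntf3 and Ngfr. Fisher's exact test on summed counts, which ignores the spread between libraries, called 6596 of the 11631 genes tested. All members but Ngfr were among them (Bdnf 0.14, Ntf3 -0.31, Ntrk2 0.06, Ntrk3 0.29), as were most genes tested. The medians by Fisher's exact test were 0.06 for sortilins, 0.00 for processing and -0.05 for Trk adaptors. Within replicate numbers 1 and 2 Ntf3 turned to 0.03 and the sortilin median was 0.06, against 0.24 within 3 and 4. Without HI4 and LI3 Ngfr turned to -0.03 and the processing median was 0.05. That median was 0.00 by limma-voom and with the replicate block, and -0.00 on log2 TPM with either pseudocount. The cause of these changes was not tested. The other alternatives changed no call or direction of the 5 members. Same-numbered libraries deviated together in 2 of 4 pairs (correlations 0.215 and 0.536, with -0.053 and 0.059 in the others). Unlike-numbered pairs ran from -0.591 (HI4 with LI2) to 0.782 (HI4 with LI3), so the numbers were not taken to pair libraries. The replicate block called 0 genes, with Ntrk3 at 0.39 ± 0.15. Counting alone gives a coefficient of variation of 15.3% for Ntf3 and 22.4% for Ngfr, below the observed 40.3% in HI and 28.3% in LI for Ntf3 and 43.8% in HI and 32% in LI for Ngfr.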
